A study of Homo sapiens with 6 samples.

Results

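The genes described here are PTX3, which encodes the long pentraxin PTX3, and 8 genes of the complement system, C1R, C1S, C3, CFB, CD46, CD55, CD59 and SERPING1. They were taken by symbol from the platform annotation, with the brightest probe set of each gene, and all 9 were measured among the 17687 genes of the arrays. The set was chosen by the p of PTX3, the second smallest of all genes in the comparison of siERK3 with siCon, so the PTX3 values of that comparison are a description and not a test. The other 8 were listed for their function, with the results already known.

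All samples were A375, an established human melanoma cell line, grown in 1 medium and transfected with a small interfering RNA (siRNA) by the same lipid reagent. RNA was taken 3 days later. The siCon group (3 arrays) received a commercial negative control siRNA, and the siERK3 group (3 arrays) a predesigned commercial siRNA against ERK3, the atypical MAP kinase encoded by MAPK6. The siRNA sequence and the origin of the 3 replicates (separate cultures or not) are not given in the labels, so p-values measure array-to-array spread, which may be only technical. At issue is which transcripts differ between cells given the siRNA against ERK3 and cells given the control siRNA, in 1 melanoma line. Effects of the siRNA other than the knockdown of ERK3 were not tested.

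Complement is a cascade of plasma and membrane proteins that tags cells and microbes for removal or lysis. C1R and C1S are the proteases of the C1 complex that opens the classical pathway, C3 is the central protein on which all routes converge, and CFB supplies the protease of the alternative pathway. CD46, CD55 and CD59 sit on the surface of host cells, tumour cells included, and protect them from complement, while SERPING1 encodes the secreted C1 inhibitor. PTX3 is made locally by many cell types on stimulation by IL-1, TNF or Toll-like receptor ligands and binds C1q, the recognition protein of the classical pathway.

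Values are the authors' log2 values per probe set. The 95th percentile of the 612 negative control probe sets of the same array, 7.32 to 7.56 on the log2 scale, is used as the background level. Array medians lay between 7.06 and 7.10. The target MAPK6 lay at 13.45 to 13.62 in siCon and 10.32 to 10.67 in siERK3. On the second principal component siCon 2 (-26.5) and siERK3 3 (-15.2) stood apart from the other 4 arrays (4.35 to 21.7), so results are also given without both. The melanocyte lineage factors SOX10 and MITF and the melanoma marker S100B were above background on all 6 arrays, whereas the pigment genes PMEL, MLANA and TYR were below it on all 6.

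The bases ahead of the transcription start are shown for PTX3 and CD55, the members lower in siERK3 by the widest margins. They are the 250 bases upstream of the start from RefSeq, build GRCh38.p14, PTX3 at chr3:157436600-157436849 on the plus strand and CD55 at chr1:207321428-207321677 on the plus strand. Capitals mark matches to a set of 5 motifs searched on both strands, NF-kB, AP-1 (TGANTCA), C/EBP (TTNNGCAA), Sp1 (GGGCGG) and STAT (TTCNNNGAA).
PTX3: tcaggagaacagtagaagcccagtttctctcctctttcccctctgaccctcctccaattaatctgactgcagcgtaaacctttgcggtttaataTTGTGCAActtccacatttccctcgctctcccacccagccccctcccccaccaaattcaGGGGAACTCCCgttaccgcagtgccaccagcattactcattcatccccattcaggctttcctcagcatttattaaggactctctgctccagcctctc
CD55: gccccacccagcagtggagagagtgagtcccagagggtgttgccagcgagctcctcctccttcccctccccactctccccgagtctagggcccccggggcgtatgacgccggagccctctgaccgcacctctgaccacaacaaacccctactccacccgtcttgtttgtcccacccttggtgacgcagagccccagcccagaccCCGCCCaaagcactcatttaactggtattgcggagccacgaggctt

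In the PTX3 window the first capital run, TTGTGCAA, matches C/EBP and begins 156 bases before the start. The longer run, GGGGAACTCCC, holds a pair of overlapping NF-kB matches that begin 97 and 96 bases before the start. In the CD55 window the capitals are a match to Sp1 on the opposite strand, 46 bases before the start. An NF-kB match occurs in 9.96% of the 35114 promoter windows of the same length, a C/EBP match in 9.05% and an Sp1 match in 42.6%. Matches to AP-1 and to STAT occur in 6.57% each, and neither window holds them. Of the 9 members 6 have an entry in the promoter table. C1S, C3 and SERPING1 have none and were not searched. Among the 6, CFB is the only other member with an NF-kB match. It lies 112 bases before the start, together with a STAT match at 92 bases. C/EBP and STAT matches also occur in windows of C1R and CD59, AP-1 matches in CD59 and Sp1 matches in CD46 and CD59. These matches describe the letters in the windows and nothing about binding.

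PTX3 was the member with the widest separation between the groups. Its probe set (TC0300009301.hg.1; gene at chr3:157436850-157443633, GRCh38.p14) read 10.28, 10.60 and 10.43 on the siCon arrays and 8.21, 8.46 and 8.15 on the siERK3 arrays. Every siERK3 value was below every siCon value, and 1.81 log2 units separated the lowest siCon array from the highest siERK3 array. The means were 10.44 ± 0.16 (SD, n = 3) and 8.27 ± 0.16 (SD, n = 3), a difference of -2.16 (SE 0.15), or 4.47-fold lower, leaving 22.4% of the control signal.

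The PTX3 signal remained above background on all 6 arrays. It exceeded that level by 2.72, 3.26 and 3.06 log2 units in siCon and by 0.89, 1.07 and 0.75 in siERK3. PTX3 transcript was therefore still measured after knockdown, close to the background level. In whole cultures, fewer cells making a transcript and less transcript per cell cannot be told apart. The difference ranged from -2.26 to -2.08 when 1 array was left out, and was -2.02 without siCon 2 and siERK3 3 together.

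**Figure D1:**
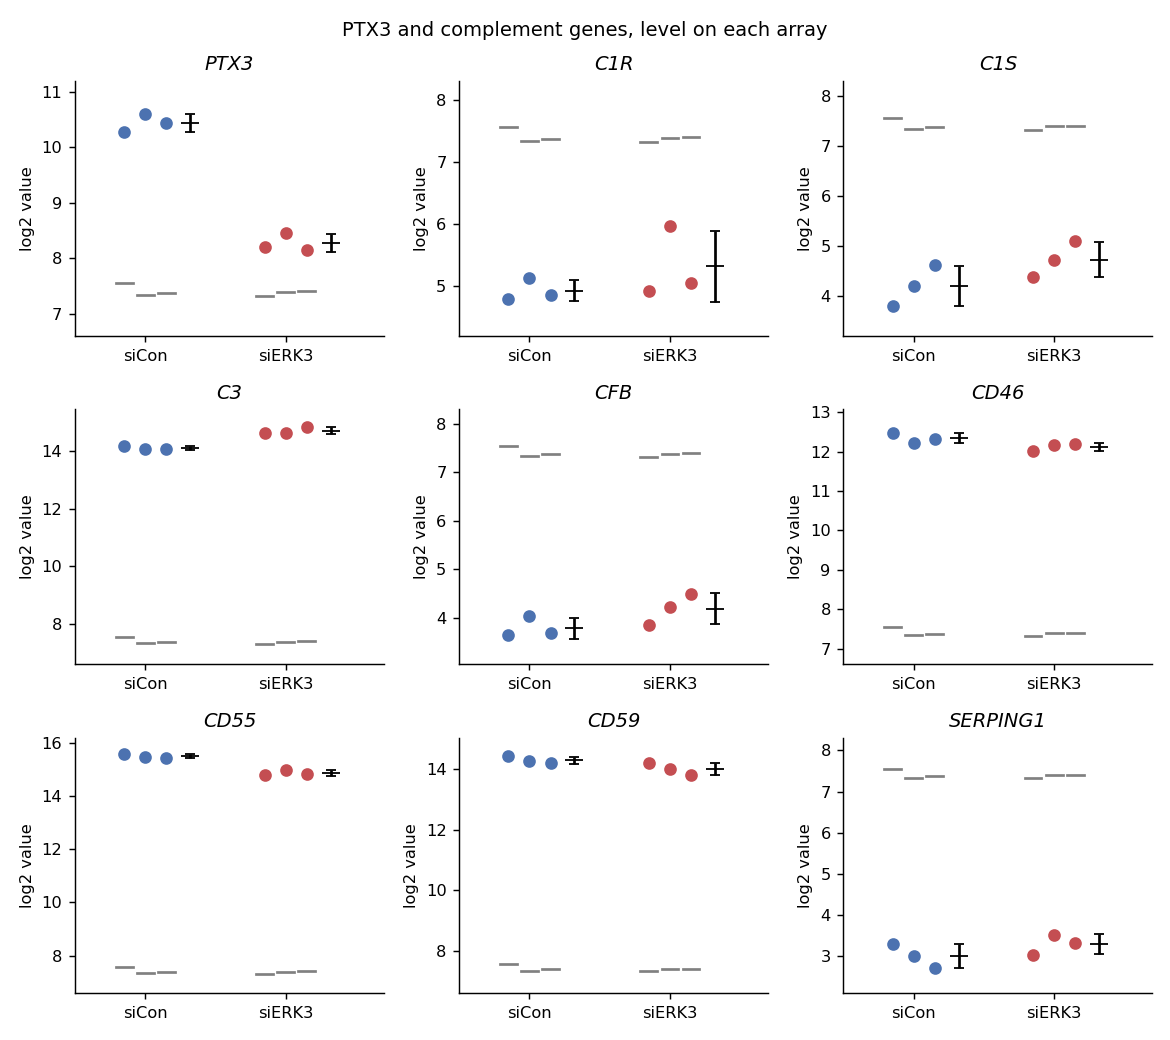
Log2 value (vertical axis) of each of the 9 genes on each array, siCon in blue and siERK3 in red, with the group mean and SD in black and the background level of each array as a grey dash. PTX3 drops from 10.44 to 8.27 and stays above the dashes, while C1R, C1S, CFB and SERPING1 lie below them on all 6 arrays.

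PTX3 lies inside the span of another gene. VEPH1, which encodes a protein with a PH domain, covers chr3:157259742-157503605 on the minus strand, and PTX3 is read from the plus strand within it. VEPH1 was not used to choose the set. It read 8.81, 9.04 and 9.21 in siCon and 8.06, 7.57 and 7.91 in siERK3, above background on all 6 arrays and with no overlap between the groups. The siERK3 readings were close to the background levels of those arrays, 7.32, 7.39 and 7.40, which limits the fold. VEPH1 fell 2.26-fold, with a log2 difference of -1.18 (SE 0.17) and an adjusted p of 0.0236 in limma over all genes.

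The VEPH1 call did not hold with fewer arrays. Its adjusted p in limma was 0.0608, 0.0699 and 0.0999 without siCon 1, siCon 2 and siCon 3, and 0.0616, 0.0966 and 0.0967 without siERK3 1, siERK3 2 and siERK3 3, although the difference stayed between -1.28 and -1.04. Without siCon 2 and siERK3 3 together it was -1.20 (adjusted p 0.189 in limma). Whether probes of either gene pick up transcripts of the other strand was not tested. The other 8 measured genes within 1000000 bases of PTX3, a window set after the VEPH1 values were seen, did not pass in limma. Among them 4 were above background on every array. SSR3, which encodes a subunit of the translocon-associated complex, had a log2 difference of -0.34 (SE 0.14; adjusted p 0.341 in limma) with no overlap between the groups. RSRC1 had a difference of -0.28, CCNL1, which encodes cyclin L1, of -0.06 and TIPARP of 0.07.

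The pattern of PTX3 over the 6 arrays was compared with that of the 7865 other genes above background on all 3 siCon arrays, each gene taken relative to its own siCon mean. The measure was the root mean square difference from PTX3 in log2 units. The measure picked 5 genes, of which 3 were above background on all 6 arrays. PLEKHB2, which encodes a membrane protein with a PH domain, lay at 0.19, LIMK1, the kinase that phosphorylates cofilin, at 0.35 and the metalloprotease ADAM19 at 0.41. PLEKHB2 went from 11.35 to 9.43, LIMK1 from 9.93 to 8.22 and ADAM19 from 9.39 to 7.76 on the log2 scale. On the siERK3 arrays ADAM19 read 7.64, 7.79 and 7.85, close to their background levels of 7.32, 7.39 and 7.40. The distance of ADAM19 is therefore less certain. The other two, GEM, a small GTP-binding protein of the RGK family (8.36 to 6.44), and SERPIND1, which encodes heparin cofactor II (7.77 to 5.95), were below background on all 3 siERK3 arrays. Their siERK3 levels are only bounds, so their distances are not determined and none is given. The likeness rests on 2 groups of 3 arrays and reflects mainly the size of the difference between them.

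**Figure D2:**
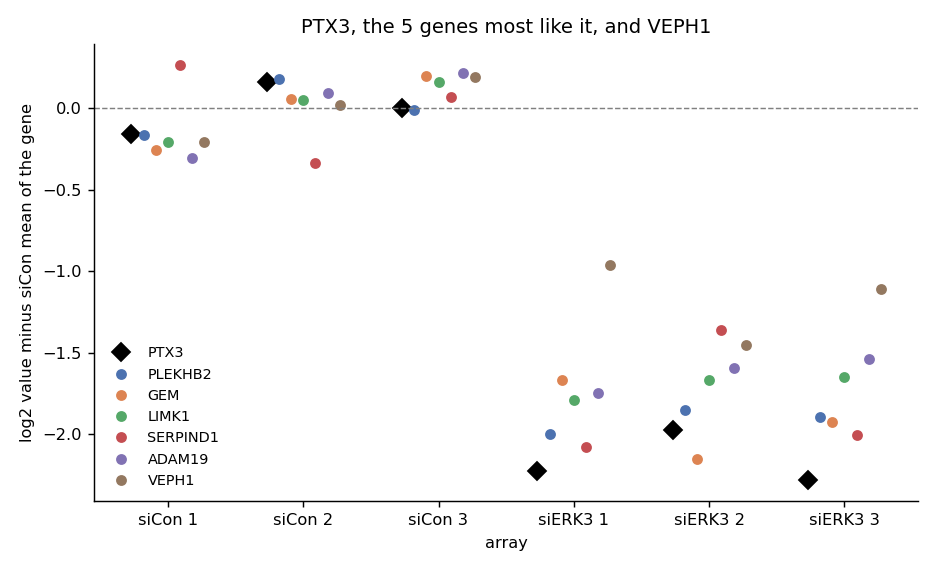
Log2 value minus the gene's siCon mean (vertical axis) on each of the 6 arrays (horizontal axis) for PTX3 (black diamonds), the 5 genes picked by the measure and VEPH1. The 3 siERK3 points of PTX3 are near -2.16 on average, those of PLEKHB2 near -1.92 and those of VEPH1 near -1.18. The siERK3 points of GEM and SERPIND1 lie below background.

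In limma's fit across all genes 1 of the 9 members passed an adjusted p of 0.05, PTX3 itself, which the choice of the set had fixed. In the same fit 0.956% of all genes passed, made up of 0.447% of all genes higher and 0.509% of all genes lower in siERK3. Of the 8 others 0 passed. Before adjustment, C3 on the higher side and CD55 on the lower had p under 0.05, as did 6.98% and 6.50% of all genes on those sides. Groups did not overlap for 4 of the 9 members, C3 on the higher side and PTX3, CD55 and CD46 on the lower. Over all genes 19.8% were so separated, 10.1% higher and 9.70% lower. Among the 7721 genes above background on all arrays the share was 29.5%, against 4 of 5 members. The rule used this contrast, so nothing is read from these counts. The median log2 difference was 0.30 over the 9 members and -0.27 over the 5 above background, beside 0.00 over all genes. The 0.30 is the value of SERPING1, a gene below background on all 6 arrays, and is not read as a rise of the set.

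Of the components that build the cascade, C3 was the one with a measurable signal. C3 (TC1900009443.hg.1; chr19:6677704-6720650) read 14.16, 14.08 and 14.06 in siCon and 14.62, 14.62 and 14.83 in siERK3. All siERK3 arrays were above all siCon arrays, by at least 0.46. The means were 14.10 ± 0.05 (SD, n = 3) and 14.69 ± 0.12 (SD, n = 3), a log2 difference of 0.59 (SE 0.13; 95% interval 0.29 to 0.89), or 1.51-fold. The adjusted p in limma was 0.0848, so C3 did not pass. Its difference ran from 0.52 to 0.63 with 1 array left out and was 0.51 without siCon 2 and siERK3 3.

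The C3 call changed under 2 settings. With a mean-variance trend and robust settings its adjusted p in limma was 0.000298, and with the dimmest 30% of genes left out it was 0.0411. Over all its alternatives the adjusted p ranged from 0.000298 to 0.316.

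C1R, C1S and CFB, the proteases that act upstream of C3 or with it, were not measurable in either group. C1R (TC1200012744.hg.1; chr12:7080219-7092445) lay between 4.80 and 5.13 in siCon and between 4.93 and 5.98 in siERK3. C1S (TC1200012592.hg.1; chr12:7060718-7071032), its neighbour in the genome and partner in the C1 complex, lay between 3.80 and 4.61 in siCon and between 4.37 and 5.09 in siERK3. CFB (TC0600014106.hg.1; chr6:31946095-31952084) lay between 3.64 and 4.03 in siCon and between 3.86 and 4.49 in siERK3. All of these values were below background and the groups overlapped for all 3 genes. In limma the log2 differences were 0.39, 0.53 and 0.41 with adjusted p of 0.590, 0.397 and 0.408. The C1R difference came to 0.06 without siERK3 2, the array at 5.98. No fold is given for signals below background.

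The 3 membrane regulators were above background on all 6 arrays, and their means were lower in siERK3. CD55 (TC0100011406.hg.1; chr1:207321678-207360966), decay-accelerating factor, which dissociates the enzymes that cleave C3, read 15.58, 15.47 and 15.44 in siCon and 14.78, 14.99 and 14.81 in siERK3. The groups were 0.45 apart at their closest. The means were 15.50 ± 0.08 (SD, n = 3) and 14.86 ± 0.11 (SD, n = 3), a log2 difference of -0.64 (SE 0.13; 95% interval -0.93 to -0.34), which leaves 64.4% of the control signal. CD55 did not pass, with an adjusted p of 0.0715 in limma. Its difference ran from -0.70 to -0.59 with 1 array left out and was -0.62 without siCon 2 and siERK3 3.

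The CD55 call changed under the same settings as that of C3. The adjusted p in limma was 9.1e-05 with a mean-variance trend and robust settings and 0.0356 with the dimmest 30% of genes left out. Over all its alternatives it ranged from 9.1e-05 to 0.278.

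CD46 (TC0100011419.hg.1; chr1:207752038-207795516), a cofactor for the inactivation of C3b, is encoded on the same chromosome as CD55 in a cluster of complement regulators. It read 12.47, 12.22 and 12.32 in siCon and 12.01, 12.16 and 12.19 in siERK3. The groups did not overlap, but only 0.03 separated their nearest arrays. The log2 difference was -0.21 (SE 0.13; 95% interval -0.52 to 0.10; adjusted p 0.566 in limma). The other complement genes of that cluster, C4BPA, C4BPB, CR1 and CR2, were below background on all 6 arrays.

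CD59 (TC1100013161.hg.1; chr11:33703010-33736479), which blocks the final membrane attack complex, read 14.43, 14.26 and 14.19 in siCon and 14.22, 14.02 and 13.82 in siERK3. The highest siERK3 array lay above the lowest siCon array, so the groups overlapped. The log2 difference was -0.27 (SE 0.15; 95% interval -0.62 to 0.07; adjusted p 0.491 in limma). The intervals of CD46 and CD59 both include 0 and a decrease as large as the -0.52 and -0.62 at their lower ends.

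SERPING1 (TC1100007684.hg.1; chr11:57597685-57614848), the C1 inhibitor, was below background on all 6 arrays, at 2.71 to 3.29 in siCon and 3.04 to 3.53 in siERK3. Limma fitted a difference of 0.30 (SE 0.19; adjusted p 0.568). The inhibitor and its target proteases C1R and C1S were thus all unmeasured in these cells.

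**Figure D3:**
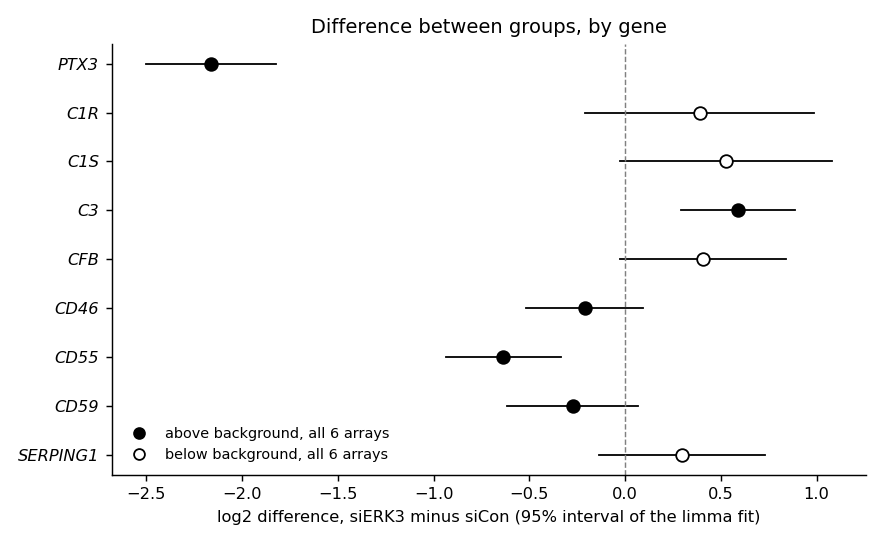
Log2 difference between siERK3 and siCon (horizontal axis) with its 95% interval from limma for each of the 9 genes, filled where all 6 arrays were above background and open where all 6 were below. PTX3 lies at -2.16, CD55 at -0.64, CD59 at -0.27, CD46 at -0.21 and C3 at 0.59.

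The differences of the 5 measured members were recomputed under every setting. Across the 16 alternatives PTX3 ranged from -2.26 to -2.02, C3 from 0.51 to 0.63, CD55 from -0.70 to -0.59, CD46 from -0.30 to -0.14 and CD59 from -0.37 to -0.18. The CD59 difference of -0.27 became -0.18 without siERK3 3, and the CD46 difference of -0.21 became -0.14 without siCon 1. None of the 5 changed direction in any of these fits, but many of the fits could not have shown a change. The filter, probe set means, other variance models and the block left each difference as it was. Leaving out arrays cannot reverse groups that do not overlap, which holds for PTX3, C3, CD55 and CD46.

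**Figure D4:**
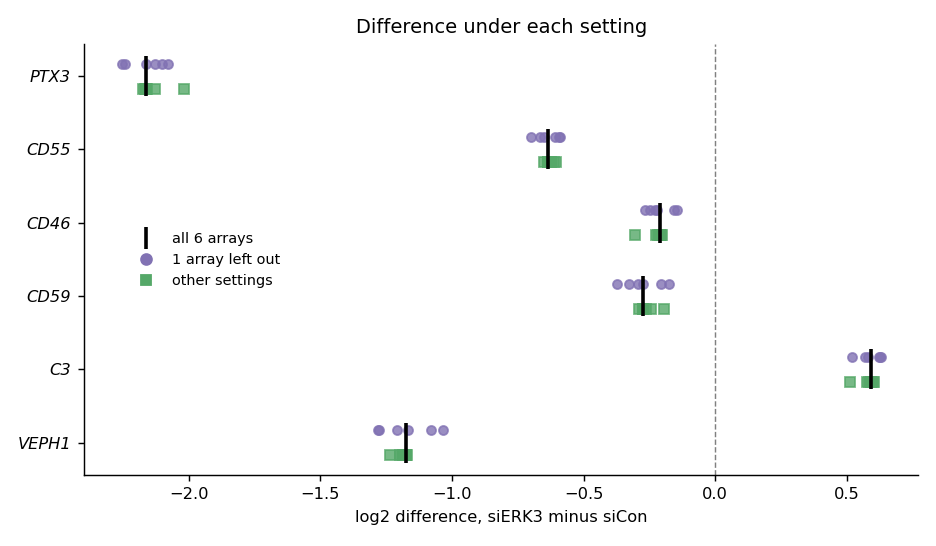
Log2 difference between siERK3 and siCon (horizontal axis) for the 5 members above background and VEPH1, with all 6 arrays (black bar), with 1 array left out (circles) and under the other settings (squares). Each gene keeps its side of 0, with PTX3 between -2.26 and -2.02 and C3 between 0.51 and 0.63.

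The remaining complement genes were mostly unmeasured in A375. Of 54 listed, 48 were on the arrays as annotated and 43 of these were below background on all 6. Over all genes 8838 of 17687 were below background on all 6. In limma 0 passed over all genes, against 0.956% of all genes, and 2 higher and 2 lower had p under 0.05 before adjustment, beside 6.98% and 6.50% of all genes. The median log2 difference was -0.05. All 5 measured classical components, among them C1QA, C1QB and C1QC of the recognition protein C1q, were below background, as were the 2 alternative components CFD and CFP and the 7 terminal components from C5 to C9. Of the lectin pathway list 1 of 9 was above it, COLEC12, a scavenger receptor with a collectin domain, which read 8.12, 7.41 and 7.80 in siCon and 8.32, 8.27 and 8.20 in siERK3. COLEC12 had a log2 difference of 0.48 (SE 0.18) and an adjusted p of 0.301 in limma.

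Among the soluble regulators 2 of 8 were above background. CFI, the protease that inactivates C3b and for which CD46 is a cofactor, read 9.90, 10.04 and 9.91 in siCon and 9.69, 9.69 and 9.93 in siERK3, a log2 difference of -0.18 (SE 0.14; adjusted p 0.637 in limma). CPN1, a subunit of the carboxypeptidase that trims anaphylatoxins, had a difference of 0.06 (SE 0.19). All 6 further membrane regulators, CR1 and THBD included, were below background. Of the 11 receptors the multifunctional proteins C1QBP and CALR were above it, with differences of 0.11 and 0.02. The anaphylatoxin receptors C3AR1, at 6.14 and 5.46, and C5AR1, at 4.64 and 5.44 in siCon and siERK3, were below background on all arrays and did not pass.

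The relatives and partners of PTX3 were examined next. All 5 other pentraxins measured, CRP and the neuronal NPTX1, NPTX2 and NPTXR among them, were below background. Of 6 binding partners FGF2, the growth factor that PTX3 can sequester, read 8.80, 8.74 and 9.07 in siCon and 8.80, 9.19 and 9.10 in siERK3, a log2 difference of 0.16 (SE 0.16; adjusted p 0.742 in limma). FCGR2A, an Fc receptor that binds pentraxins, had a difference of -0.19 (SE 0.17). TNFAIP6, which joins PTX3 in hyaluronan matrices, was below background on all 6 arrays. In limma 0 of these 11 genes passed, beside 0.956% of all genes, and 1, ITIH2, was lower with p under 0.05 before adjustment, beside 6.50% of all genes.

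Inducers of PTX3 and complement genes and their receptors held 3 calls among 11 measured genes, 2 higher and 1 lower, beside 0.956% of all genes. IL1A, the alarmin interleukin 1 alpha and an inducer of PTX3, read 12.16, 12.31 and 12.15 in siCon and 10.87, 11.14 and 10.90 in siERK3. It fell 2.36-fold (adjusted p 0.00955 in limma), and lost its call without siERK3 1 (0.0538), siERK3 3 (0.0545) or siCon 2 and siERK3 3 together (0.126). IL1B, the other main ligand of the same receptor, read 11.20 to 11.38 in siCon and 11.42 to 11.68 in siERK3 and did not pass, with a difference of 0.29 (SE 0.14). Their receptor IL1R1 was below background on all arrays.

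IL6ST, the gp130 receptor subunit through which IL-6 type cytokines act on acute phase genes, read 11.92, 12.01 and 11.89 in siCon and 13.25, 13.21 and 13.43 in siERK3. It rose 2.56-fold, with an adjusted p of 0.00456 in limma, and passed with any 1 array left out but not without siCon 2 and siERK3 3 together (0.0845). IL6, the third call, was below background on all arrays, at 4.45 and 5.50, and lost its call whichever array was left out (adjusted p 0.0581 to 0.108 in limma). Named after their values were seen, the interferon gamma receptor subunit IFNGR2 had a difference of -0.45 (SE 0.13; adjusted p 0.154 in limma) and the TNF receptor TNFRSF1A of 0.39 (SE 0.13; adjusted p 0.229 in limma). Neither passed, and for both the groups did not overlap.

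Of 12 measured transcription factors known to act on these genes 0 passed in limma over all genes, and 1 higher and 3 lower had p under 0.05 before adjustment. Over all genes the shares were 0.956% passing, and 6.98% higher and 6.50% lower before adjustment. FOSL1, an AP-1 subunit, read 12.08, 12.33 and 12.36 in siCon and 11.68, 11.51 and 11.44 in siERK3, a log2 difference of -0.71 (SE 0.14; adjusted p 0.0647 in limma). NFKB2, an NF-kB subunit, had a difference of -0.54 (SE 0.14; adjusted p 0.125 in limma), beside -0.22 for NFKB1 and 0.04 for RELA. STAT3, which acts downstream of IL6ST, read 10.30, 9.84 and 10.37 in siCon and 10.73, 10.86 and 10.87 in siERK3, a difference of 0.65 (SE 0.17; adjusted p 0.128 in limma). IRF1, an interferon regulatory factor named after its values were seen, was below background on all arrays, at 6.87 in siCon and 6.40 in siERK3. Among the 12, groups did not overlap for 1 on the higher side, STAT3, and 3 on the lower, FOSL1, NFKB2 and IRF1. The share was 19.8% of all genes and 29.5% of the genes above background on all arrays.

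**Figure D5:**
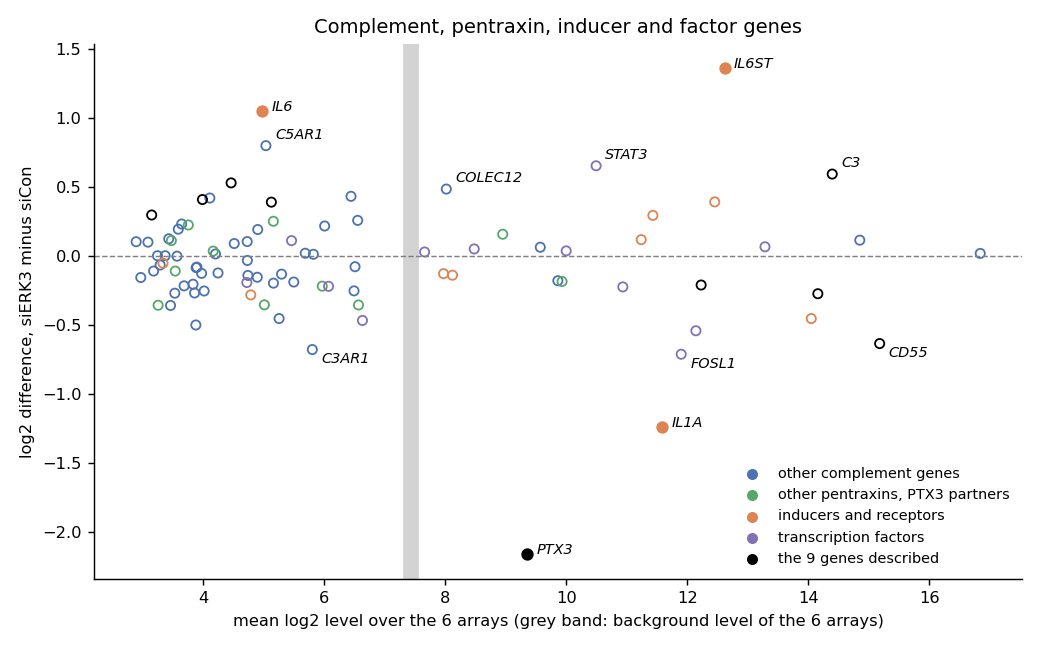
Log2 difference between siERK3 and siCon (vertical axis) against mean log2 level (horizontal axis) for the members and the listed complement, pentraxin, inducer and factor genes, filled where limma's adjusted p was under 0.05. PTX3, IL1A, IL6ST and IL6 are filled, and 43 of the 48 other complement genes lie left of the background band.

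Complement genes are also expressed by other cell types, whose markers were examined on the same arrays. All samples were the A375 line, so signals of these markers are not read as other cell types being present. Of 7 leukocyte markers CD68 and LYZ were above background and the defining marker PTPRC was below it on all 6 arrays. The mean log2 level of the 7 was 6.81 to 6.89 in siCon and 6.70 to 6.73 in siERK3. Of 6 hepatocyte markers only SERPINA1 was above background, ALB and APOA1 being below it on all arrays, and the list means ran from 4.86 to 5.10 in siCon and from 4.81 to 5.13 in siERK3. Of 5 fibroblast markers COL1A2 and LUM were above background, with list means of 6.88 to 7.27 and 6.98 to 7.17, and COL1A1 and DCN were below it. LUM had a log2 difference of -0.83 and was the marker that passed in limma (adjusted p 0.0441). All 4 endothelial markers were below background. Over these 4 lists LUM, LYZ, CD68 and SERPINA1 were lower on every siERK3 array than on any siCon array. TTR, a hepatocyte marker below background, was higher on every siERK3 array. The shares over all genes were 9.70% lower and 10.1% higher. Of the markers in these lists above background on all arrays, only COL1A2 overlapped between the groups. Among the 7721 genes above background on all 6 arrays, 1162 were lower without overlap and 1117 higher. Any link of these markers to the differences above was not tested.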

How the data were processed

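Expression was measured on 6 Affymetrix Clariom S Pico human arrays, 3 per group, with WT PLUS labelling, per the labels' protocols. The values the authors deposited are log2 values per probe set. The software, summary and normalization steps were not given in the sources used here, nor are the scale's zero point and any stretch, on which folds depend. Of 24351 probe sets 17709 had exactly 1 symbol, and the brightest per gene gave 17687 genes, with no filter. The siERK3 minus siCon difference was fitted by limma 3.58.1 under R 4.3.3 (lmFit, eBayes, no covariate), and p was adjusted by Benjamini-Hochberg across all genes, with 0.05 as threshold. For 3 against 3 arrays an exact permutation test cannot go below 0.1. The number of arrays limits the precision. The script was tested on simulated data.

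Members and lists were chosen with earlier results of these data known. Named are the members, MAPK6, VEPH1, the 5 genes nearest PTX3 and, from each list, the genes that passed or else up to 3 above background with the smallest p; any other gene was named with its values known. Some listed genes were not analysed here. Alternatives were other normalizations, a low-level filter, probe set means, other variance models, array weights, the replicate number as a block and each array left out. Leaving out siCon 2 and siERK3 3 together was added after seeing the data.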

Additional observations from a re-analysis of the deposited data

How the results depend on the processing

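PTX3 passed in 15 of 16 alternatives. The set was chosen by the p of PTX3 and these refits use the same arrays, so the count is a description and not a test. Without moderation of the variance the adjusted p of PTX3 in limma's unmoderated fit was 0.0603 at the same difference of -2.16. C3 (0.59) and CD55 (-0.64) passed with the low-level filter and with the trended robust fit, so that 3 members passed in each of these and 0 without moderation. The number of genes that passed, 169 (79 higher, 90 lower), became 365 (184 and 181) with the filter, 722 (343 and 379) with the trended robust fit and 8 (4 and 4) without moderation. It was 23 to 60 with 1 array left out (9 to 30 higher, 13 to 30 lower) and 7 (2 and 5) without siCon 2 and siERK3 3 together. Among pentraxin, partner, inducer and factor genes the 3 calls became 8 with the trended robust fit, 0 without moderation, 1 to 2 with 1 array left out and 0 without both arrays. The other complement genes gave 0 calls under all 16.

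The deviations of same-numbered arrays from their group means correlated at 0.05, -0.12 and -0.04. Whether same-numbered arrays were cultured or processed together is not given in the labels, and these correlations cannot decide it. With the replicate number as a block 33 genes passed (11 higher, 22 lower), PTX3 among them (adjusted p 0.00821 in limma), C3 (0.199) and CD55 (0.180) again did not, and IL6 (0.0824) and VEPH1 (0.0792) lost their calls. None of the 9 members, IL1A, IL6, IL6ST or VEPH1 reversed under the alternatives that gave it a value. The filter, probe set means, other variance models and the block leave the difference unchanged, so they could not reverse it. Nor could leaving out arrays reverse it where the groups do not overlap, as for IL1A, IL6, IL6ST and VEPH1. The other genes named were not refitted. Signal over background limits C1R, C1S, CFB and SERPING1.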
